A study of Mus musculus with 10 samples.

Results

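Genes of the endoplasmic reticulum (ER) chaperone system and the unfolded protein response were compared between hearts of LPS-treated mice given artesunate or vehicle. The set was chosen by gene symbol, with earlier results of these data known. It held 35 stress sensors, chaperones, disulfide isomerases, translocon subunits and factors of ER-associated degradation. All 35 were found among the 30074 genes of the deposited table. RNA sequencing covered 10 hearts of wild-type male mice of the C57BL/6 strain, which weighed about 25 g at an age of 8 to 12 weeks. All 10 mice had received lipopolysaccharide (LPS, a component of the outer membrane of Gram-negative bacteria) intraperitoneally to induce sepsis with cardiomyopathy, a model of endotoxin shock rather than of live infection. In the LPS+ART group, 5 mice were also injected intraperitoneally with artesunate, an antimalarial endoperoxide, in doses of 50 mg/kg given 10 min ahead of LPS and 4 h after it. The LPS+Vehicle group held the other 5. Cardiac function was assessed 24 h after LPS. Hearts without LPS were not analysed here, so no value below has an unstimulated level beside it.

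Secreted and membrane proteins fold in the ER, where the HSP70 chaperone BiP (Hspa5), the HSP90 chaperone GRP94 (Hsp90b1), lectin chaperones and disulfide isomerases assist them. When unfolded proteins accumulate, the membrane sensors ATF6, IRE1 (Ern1) and PERK (Eif2ak3) signal to the nucleus: cleaved ATF6 and the spliced form of XBP1 raise transcription of chaperone and degradation genes, while PERK lowers translation and favours that of ATF4. In heart muscle the same compartment is continuous with the calcium-storing sarcoplasmic reticulum, and ATF6 and its targets are known from work in mice on ischemia and pressure overload. Gene-level values do not separate spliced from unspliced Xbp1 mRNA, nor do they show sensor protein activity.

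ATF6 and XBP1 act through short promoter elements, and the classical one, the ER stress response element, is shown here because it links many of the genes whose levels are described below. The element was searched for as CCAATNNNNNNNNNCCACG on both strands of the 300 bases around each start site (250 before, 50 after) in the RefSeq promoter table of GRCm38.p6. Promoters were listed for 30 of the 35 genes, and 9 of these 30 (30%) held a match, against 0.119% of the 32851 promoters in the table. Here and below, a gene counted once if any of its promoters matched, while the background counts promoters, so the units differ. The 35 were also chosen as genes of the response in which this element acts. A higher share than in all promoters was thus partly built into the choice. A second form, ER stress response element II, in which ATTGG is followed after 1 base of any kind by CCACG, was found for 2 of the 30 genes, Herpud1 and Dnajb11, and in 0.0365% of all promoters. The unfolded protein response element, TGACGTGG, was found for 0 of the 30 genes and in 0.676% of all promoters. None of the matches in the 30 genes overlapped another. A match is a run of letters, not a measured binding site. The stretches below read 5′ to 3′ on the strand of the gene, with the matched element in capitals. They lie at chr2:34772013-34772055 (Hspa5, plus strand), chr10:86705521-86705668 (Hsp90b1, minus), chr8:84847063-84847105 (Calr, minus), chr11:50325788-50325830 (Canx, minus), chr12:17266479-17266521 (Pdia6, plus), chr15:88819508-88819550 (Creld2, plus), chr14:118937815-118937857 (Dnajc3, plus), chr19:6046520-6046562 (Syvn1, plus) and chr8:94386365-94386399 (Herpud1, plus).
Hspa5: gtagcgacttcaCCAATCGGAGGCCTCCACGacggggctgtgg
Hsp90b1: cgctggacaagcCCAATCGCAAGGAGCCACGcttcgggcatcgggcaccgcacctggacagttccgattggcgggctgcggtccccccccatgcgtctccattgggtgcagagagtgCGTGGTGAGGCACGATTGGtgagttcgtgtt
Calr: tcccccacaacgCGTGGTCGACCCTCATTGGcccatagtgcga
Canx: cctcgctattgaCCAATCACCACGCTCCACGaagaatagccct
Pdia6: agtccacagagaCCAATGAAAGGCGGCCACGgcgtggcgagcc
Creld2: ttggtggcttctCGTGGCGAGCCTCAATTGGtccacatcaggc
Dnajc3: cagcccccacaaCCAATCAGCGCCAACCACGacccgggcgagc
Syvn1: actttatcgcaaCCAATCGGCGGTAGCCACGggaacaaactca
Herpud1: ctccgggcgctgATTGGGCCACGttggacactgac
In Hspa5 the matched run began 65 bases before the start site, in Syvn1 44 bases before it, and Hsp90b1 carried 2 matches in opposite orientation. Calr and Creld2 hold the element in the reverse orientation, so it reads as its reverse complement.

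Hearts given artesunate held lower levels than vehicle hearts across nearly the whole system. Summed over the 35 genes, FPKM (reads per kilobase of gene, scaled to the size of the library and so comparable between genes) was 541 to 703 in the hearts given artesunate and 995.9 to 1155 in the vehicle hearts. Of the 35 genes, 34 reached a mean of 0.5 FPKM and were tested. With limma on log2(FPKM + 1), a call being a Benjamini-Hochberg adjusted p under 0.05 over all 13314 genes tested, 31 of the 34 were lower and 0 higher in LPS+ART (0 higher at an unadjusted p under 0.05 as well), against 52.9% lower and 11.8% higher among all genes. The 3 that were not called were Xbp1, Syvn1 and Sec61a1. In 29 of the 34 all LPS+ART values lay below all LPS+Vehicle values, which held for 42.5% of all genes.

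The whole transcriptome shifted in the values as deposited, with a median log2 fold change of -0.27 over all genes and -0.72 over the 34. After median-ratio scaling, which removes that shift, the medians were 0.02 and -0.36. On that scale 22 of the 34 were lower and 2 higher, against 30.1% lower and 30.1% higher among all genes. Scaling by TMM (a trimmed mean of log ratios) called the same 22 lower, against 30.8% of all genes. Cyclic loess, which also removes a trend with expression level, called 26 lower and 3 higher, against 28.7% and 29.0% of all genes. In all 4 settings 21 genes were lower. Among all genes that joint share was not counted, and it cannot exceed the 28.7% lower with cyclic loess.

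Log2 fold changes also followed expression level, so the ER genes were set beside genes of their own level. Among genes of 20 to 100 FPKM the median log2 fold change was -0.14 and 38.4% were called lower, while the 10 tested members in that range had a median of -0.72 and 9 were lower. Above 100 FPKM the median of 313 genes was 0.13, with 15% lower. Both members there, Hspa5 and P4hb, were lower. At 5 to 20 FPKM the median was -0.31 for all genes and -0.75 for 18 members. Of the 4 members at 1 to 5 FPKM all were lower, where 58.7% of all genes were.

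**Figure D1:**
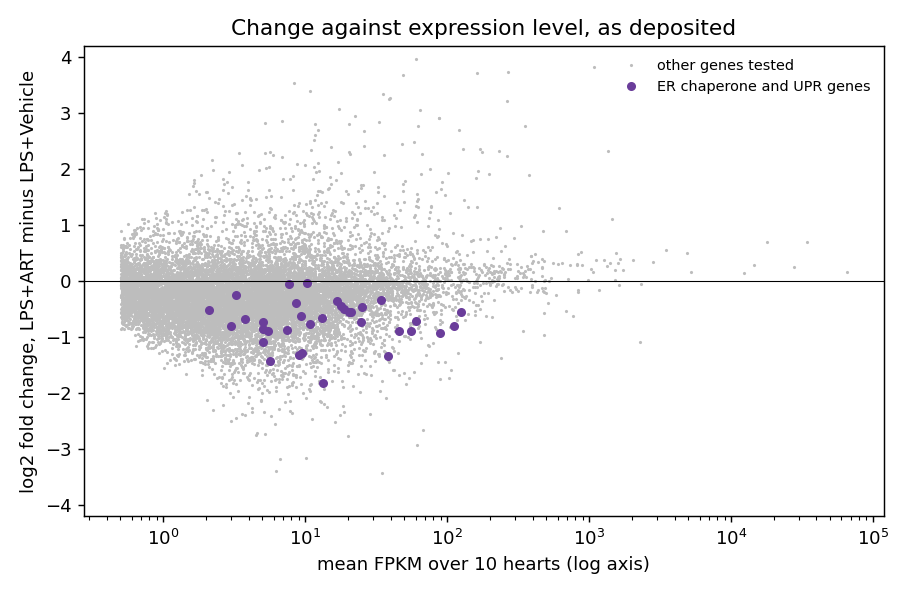
Log2 fold change (LPS+ART minus LPS+Vehicle, on log2(FPKM + 1)) against mean FPKM over the 10 hearts on a log axis. Grey points are the other genes tested and purple points the 34 ER genes, which all lie below 0. Above 20 FPKM they lie within the cloud, below the median change of genes of their level.

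**Figure D2:**
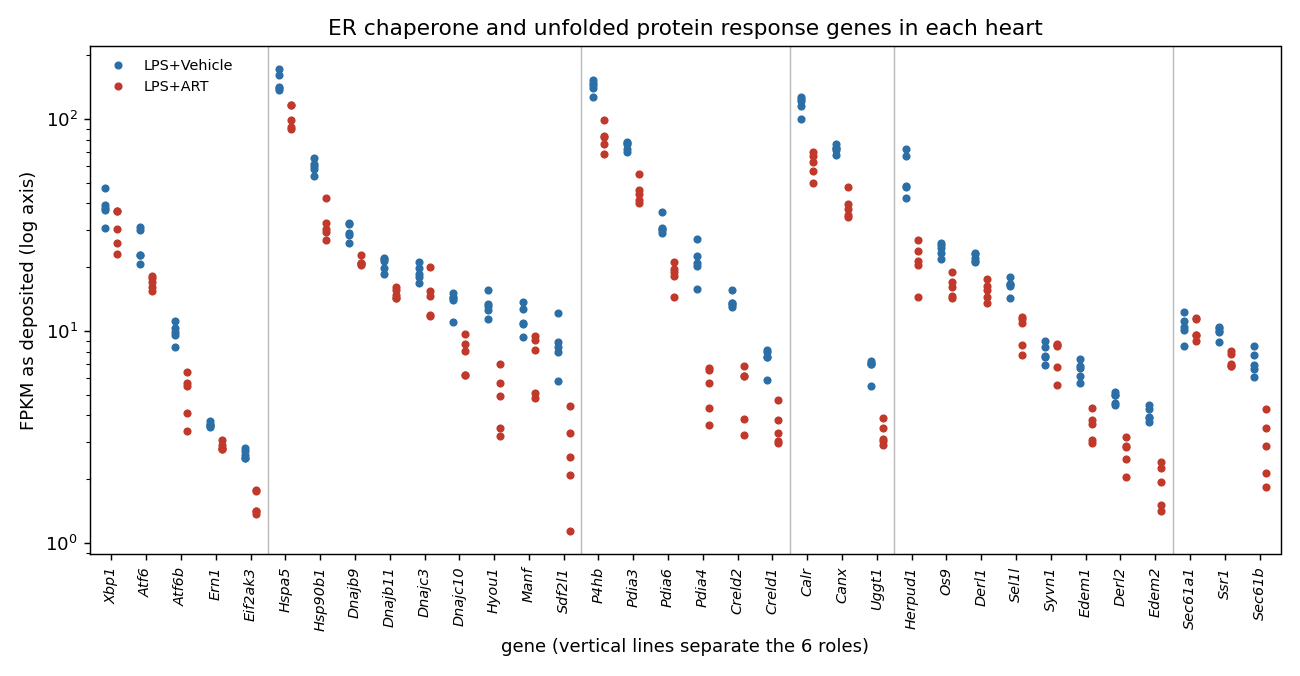
FPKM of the 34 tested genes in each heart on a log axis, blue for LPS+Vehicle and red for LPS+ART, ordered by role (sensors, HSP70 and HSP90 chaperones, disulfide isomerases, lectin chaperones, degradation, translocon) and by level. The red points lie under the blue ones without overlap in 29 genes, and the groups overlap in Xbp1, Dnajc3, Manf, Syvn1 and Sec61a1.

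RNA came from whole hearts, so fewer cells of a type and less RNA per cell cannot be told apart. Cardiomyocyte markers (Myh6, Tnnt2 and 6 others) were all abundant and summed to 8359 to 10351 FPKM in LPS+ART against 7128 to 7789 in LPS+Vehicle, with 4 of 8 called higher and 1 lower. Markers of other cell types did not all move down with the ER genes. These calls stand beside 52.9% lower and 11.8% higher among all genes as deposited. Macrophage and monocyte markers summed to 61.6 to 104 against 141 to 271 FPKM (6 of 8 lower, 1 higher), and smooth muscle and pericyte markers to 103 to 152 against 158 to 221 (3 of 4 tested lower, 0 higher, with Tagln and Cnn1 under 0.5 FPKM). Fibroblast markers summed to 144 to 191 against 173 to 317, with overlap of the groups (5 of 7 lower, 0 higher). Endothelial markers overlapped as well, at 147 to 222 against 154 to 203. Their calls (4 of 7 lower, 1 higher) were near the shares of all genes. Neutrophil markers also overlapped, at 29.5 to 234 against 29.1 to 68.7 (2 of 6 tested lower, 0 higher). Plasma and B cell markers were near 0, with 7 of 8 under 0.5 FPKM and sums of 1.34 to 2.37 against 2.20 to 2.85, and T cell markers were all under 0.5, with sums of 0.428 to 1.19 against 0.455 to 0.793. Median-ratio scaling called 30.1% of all genes each way. With it 5 macrophage markers were lower and 2 higher, and 4 fibroblast markers lower and 0 higher. Of the smooth muscle and pericyte markers 2 were lower and 0 higher. On that scale 2 endothelial markers were lower and 3 higher, and 0 cardiomyocyte markers lower and 6 higher. The part of these shifts in the ER gene values was not tested.

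Of the 4 sensors and Xbp1, as deposited 4 genes were lower and Xbp1 was not called, against 52.9% of all genes lower. After median-ratio scaling 2 of the 5 were lower, near the 30.1% of all genes. Atf6, the sensor that is cut in the Golgi to release a transcription factor, stood at 15.4, 18.2, 17.7, 17.02 and 16.1 FPKM in LPS+ART replicates 1 to 5 and at 29.998, 22.7, 30.9, 20.8 and 22.8 in LPS+Vehicle replicates 1 to 5. Every LPS+ART heart was below every vehicle heart, and the log2 fold change was -0.55 (SE 0.11, limma adjusted p = 0.0012), but after median-ratio scaling it was -0.17 and not called (limma adjusted p = 0.222). With cyclic loess Atf6 was called lower, at -0.33 (limma adjusted p = 0.0288). Atf6b, its paralog, fell from 9.86 ± 0.988 to 5.02 ± 1.24 FPKM (SD, n = 5 each), and was lower in all 4 settings.

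Ern1, the kinase and endoribonuclease that splices Xbp1, stood within 2.77 to 3.07 FPKM in LPS+ART and within 3.54 to 3.77 in LPS+Vehicle. That small gap, a log2 fold change of -0.26 (limma adjusted p = 0.00203), turned with the scaling: it was 0.05 after median-ratio scaling (limma adjusted p = 0.486) and 0.15 with cyclic loess, where Ern1 was called higher (limma adjusted p = 0.0416). Eif2ak3, the kinase PERK, stood at 1.41, 1.41, 1.76, 1.37 and 1.79 FPKM against 2.53, 2.80, 2.51, 2.72 and 2.59. It fell 1.70-fold, was lower after median-ratio and TMM scaling as well, and was not called with cyclic loess (limma adjusted p = 0.121).

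Xbp1, whose spliced mRNA encodes the active factor, stood at 30.3, 36.7, 26.0, 23.1 and 36.7 FPKM in LPS+ART against 39.2, 37.4, 30.5, 47.1 and 37.8 in LPS+Vehicle. The groups overlapped, with vehicle replicate 3 at 30.5 among the LPS+ART values (log2 fold change -0.33, SE 0.14, limma adjusted p = 0.064). Omitting that heart gave a call of lower for Xbp1 (limma adjusted p = 0.0293), as did omitting LPS+ART replicate 2 or 5, at limma adjusted p of 0.0346 and 0.0347, whereas median-ratio scaling gave a log2 fold change of 0.05 (limma adjusted p = 0.748).

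All 9 genes of the HSP70 and HSP90 chaperones and their cofactors were lower as deposited, against 52.9% of all genes. After median-ratio scaling 4 of them stayed lower (Hsp90b1, Hyou1, Dnajc10 and Sdf2l1), against 30.1% of all genes, and with cyclic loess 7, against 28.7%. Hspa5, which encodes BiP, the master chaperone and a restraint on the sensors, stood at 98.7, 116, 91.5, 90.1 and 116 FPKM in LPS+ART and at 172, 139, 136, 160.5 and 141 in LPS+Vehicle. The groups did not overlap and the mean was 1.46-fold lower (log2 fold change -0.55, SE 0.10, limma adjusted p = 0.000559). Relative to most genes this was not called (median-ratio log2 fold change -0.15, limma adjusted p = 0.19), while against genes of its own level it was (cyclic loess -0.54, limma adjusted p = 0.000397).

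Hsp90b1, the ER form of HSP90, stood at 29.4, 30.1, 42.5, 26.8 and 32.4 FPKM against 65.5, 58.1, 61.4, 54.0 and 60.2. It was 1.86-fold lower (limma adjusted p = 4.41e-05), and LPS+ART replicate 3 was the highest of its group. In the annotation used for names, 15.7% of its exon bases are shared with other genes, and how shared reads were counted is not given in the sources used here.

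Hyou1 and Sdf2l1, which work with BiP, had larger fold changes than BiP itself. Hyou1, the large HSP70 relative that exchanges BiP's nucleotide, stood at 4.96, 5.68, 3.47, 3.20 and 6.999 FPKM in LPS+ART against 15.6, 12.5, 11.3, 13.5 and 13.1. The highest LPS+ART heart was below the lowest vehicle heart by a wide margin, and the mean was 2.72-fold lower (log2 fold change -1.31, SE 0.17, limma adjusted p = 4.64e-05). Sdf2l1, which acts with ERdj3 to keep client proteins soluble, stood at 3.29, 2.54, 2.09, 1.14 and 4.43 FPKM against 12.2, 8.87, 7.99, 5.78 and 8.43. It fell 3.21-fold, with 42 recovered reads in its poorest library, the fewest of any tested member.

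The J-domain cofactors, which hand clients to BiP, had smaller fold changes as deposited, apart from Dnajc10. Dnajb9 (ERdj4, which also represses IRE1) stood at 20.5 to 22.8 FPKM against 26.1 to 32.2. Dnajb11 (ERdj3) stood at 14.2 to 16.1 against 18.5 to 22.1. These groups did not overlap, but neither gene was called after median-ratio scaling (log2 fold changes -0.08 and -0.06). With cyclic loess both were lower, at -0.26 for Dnajb9 (limma adjusted p = 0.0169) and -0.20 for Dnajb11 (limma adjusted p = 0.0109).

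Dnajc10 (ERdj5, a disulfide reductase for degradation clients) fell from 13.8 ± 1.59 to 7.76 ± 1.55 FPKM (SD, n = 5 each) and was lower in all 4 settings. Dnajc3, known as P58IPK, an inhibitor of PERK, stood at 11.8, 11.8, 20.1, 15.4 and 14.7 FPKM against 21.2, 18.5, 18.0, 16.9 and 19.8, and LPS+ART replicate 3 overlapped the vehicle hearts. It was called lower as deposited (log2 fold change -0.36, limma adjusted p = 0.0308) but stood at 0.02 after median-ratio scaling. The call was also lost when LPS+ART replicate 1 or 2 or vehicle replicate 1, 2 or 5 was omitted, at limma adjusted p from 0.0511 to 0.0749. Averaging vehicle replicates 2 and 5 gave a limma adjusted p of 0.0562, dropping the filter 0.0625, and entering replicate numbers as a block 0.0512. Manf, a secreted protective factor that binds BiP, stood at 4.84 to 9.48 against 9.41 to 13.6 FPKM. Replicate 2 of LPS+ART just passed the lowest vehicle heart, and Manf was lower as deposited (limma adjusted p = 0.00892) but not after median-ratio scaling (limma adjusted p = 0.178).

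The disulfide isomerases and CRELD proteins were lower in 6 of 6 genes, with 52.9% as background. The groups did not overlap in any of them, which held for 42.5% of all genes. All 6 were lower in all 4 settings. Of all genes 30.1% were lower after median-ratio scaling, 30.8% with TMM and 28.7% with cyclic loess. Pdia4 (ERp72) had the largest fall of the 34: it stood at 6.69, 5.68, 4.32, 3.61 and 6.56 FPKM in LPS+ART and at 27.1, 21.0, 22.6, 15.8 and 20.2 in LPS+Vehicle. The mean was 3.98-fold lower (log2 fold change -1.82, SE 0.17, limma adjusted p = 8.41e-06), and still -1.47 after median-ratio scaling.

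P4hb, the founding protein disulfide isomerase and a subunit of collagen prolyl hydroxylase, stood at 83.1, 82.2, 76.2, 68.6 and 98.4 FPKM against 145, 152, 141, 127 and 147. It was second in level to Hspa5 among the 34 and fell 1.74-fold (limma adjusted p = 2.97e-05). Pdia3 (ERp57, the partner of the lectin chaperones) stood at 40.3 to 54.7 against 69.8 to 78.1 FPKM, and Pdia6 at 14.5 to 21.1 against 29.0 to 36.2. Their folds were 1.64 and 1.69.

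Creld2, a secreted ER stress-inducible protein with isomerase activity, stood at 6.12, 6.13, 3.22, 3.83 and 6.81 FPKM against 15.7, 13.6, 13.5, 13.0 and 13.3. It was 2.65-fold lower, close to Hyou1, while its membrane-bound relative Creld1, known from septal defects of the heart, fell 2.08-fold.

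The lectin chaperone cycle, which retains glycoproteins until they fold, was lower in 3 of 3 genes in all 4 settings, beside 52.9% of all genes as deposited and 30.1% after median-ratio scaling. Calr (calreticulin, soluble) stood at 62.4, 57.0, 69.8, 50.1 and 67.1 FPKM in LPS+ART and at 127, 124, 116, 100.2 and 121 in LPS+Vehicle. Canx (calnexin, membrane-bound) stood at 37.8, 34.4, 48.0, 35.3 and 39.8 against 73.2, 71.5, 76.4, 67.6 and 73.3. Calr fell 1.92-fold and Canx 1.85-fold, without overlap.

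Uggt1, the glucosyltransferase that returns misfolded glycoproteins to both lectins, fell 2.06-fold, from 6.76 ± 0.701 to 3.28 ± 0.403 FPKM (SD, n = 5 each, limma adjusted p = 1.5e-05).

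ER-associated degradation, which exports misfolded proteins to the proteasome, was lower in 7 of 8 tested genes, against 52.9% of all genes. After median-ratio scaling 6 were lower and 1 higher, against 30.1% each way. Herpud1, a stress-induced scaffold of the HRD1 ligase complex, led it at 20.5, 14.5, 27.0, 21.3 and 23.8 FPKM in LPS+ART against 66.8, 48.4, 72.1, 42.6 and 47.8. The log2 fold change was -1.33 (SE 0.18, limma adjusted p = 6.7e-05) and the fold 2.59. Edem1 and Edem2, which trim mannose to mark glycoproteins, fell 1.84-fold and 2.13-fold, and the lectin Os9, which reads that mark, fell 1.49-fold. These 4 were lower in all 4 settings.

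The 2 core subunits of the HRD1 complex parted. Sel1l, the adaptor, stood at 11.4, 10.9, 8.62, 7.73 and 11.6 FPKM against 18.0, 16.4, 16.6, 14.4 and 16.7, and was lower in all 4 settings. Syvn1, the ubiquitin ligase HRD1 itself, stood at 8.65, 8.54, 6.75, 5.59 and 8.49 against 8.40, 7.54, 6.92, 9.01 and 7.62. Its groups overlapped in part, with LPS+ART replicates 3 and 4 below every vehicle heart and vehicle replicate 4 above every LPS+ART heart (log2 fold change -0.06, SE 0.12, limma adjusted p = 0.673), and it was called higher after median-ratio scaling (0.29, limma adjusted p = 0.0314), TMM scaling (0.28) and cyclic loess (0.27). Within each heart the ratio of Sel1l to Syvn1, which no factor per library can alter, was 1.28 to 1.38 in LPS+ART against 1.59 to 2.40 in LPS+Vehicle. The pair was picked after the values were seen, so the ratio is a description.

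Derl1 and Derl2, channel-like proteins of the same export route, fell 1.43-fold and 1.81-fold. Derl1 was not called after median-ratio scaling (log2 fold change -0.12, limma adjusted p = 0.168) but was with cyclic loess (-0.26, limma adjusted p = 0.00615). Derl2 was lower in all 4 settings. Derl3 was the member under the filter: it was listed at 0 in LPS+ART replicate 2, at 0.0151 to 0.206 in the remaining 4 of that group and at 0.0441 to 0.218 FPKM in LPS+Vehicle, and was not tested.

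The translocon, the channel through which new proteins enter the ER, also split by subunit. Sec61a1, the pore, stood at 9.56, 11.4, 8.99, 9.53 and 11.5 FPKM in LPS+ART against 10.1, 11.2, 8.50, 12.3 and 10.5. These values overlapped (log2 fold change -0.04, SE 0.10, limma adjusted p = 0.753), and Sec61a1 was called higher after median-ratio scaling (0.32, limma adjusted p = 0.0192), TMM scaling (0.31) and cyclic loess (0.26). Sec61b, a small subunit of the same channel, stood at 3.47, 2.87, 1.85, 2.13 and 4.27 against 7.67, 8.49, 6.91, 6.04 and 6.62. It fell 2.45-fold without overlap and was lower in all 4 settings. Ssr1, a subunit of the associated TRAP complex, stood at 6.81 to 8.09 against 8.85 to 10.5 FPKM and was not called once scaled by median ratios (limma adjusted p = 0.674).

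**Figure D3:**
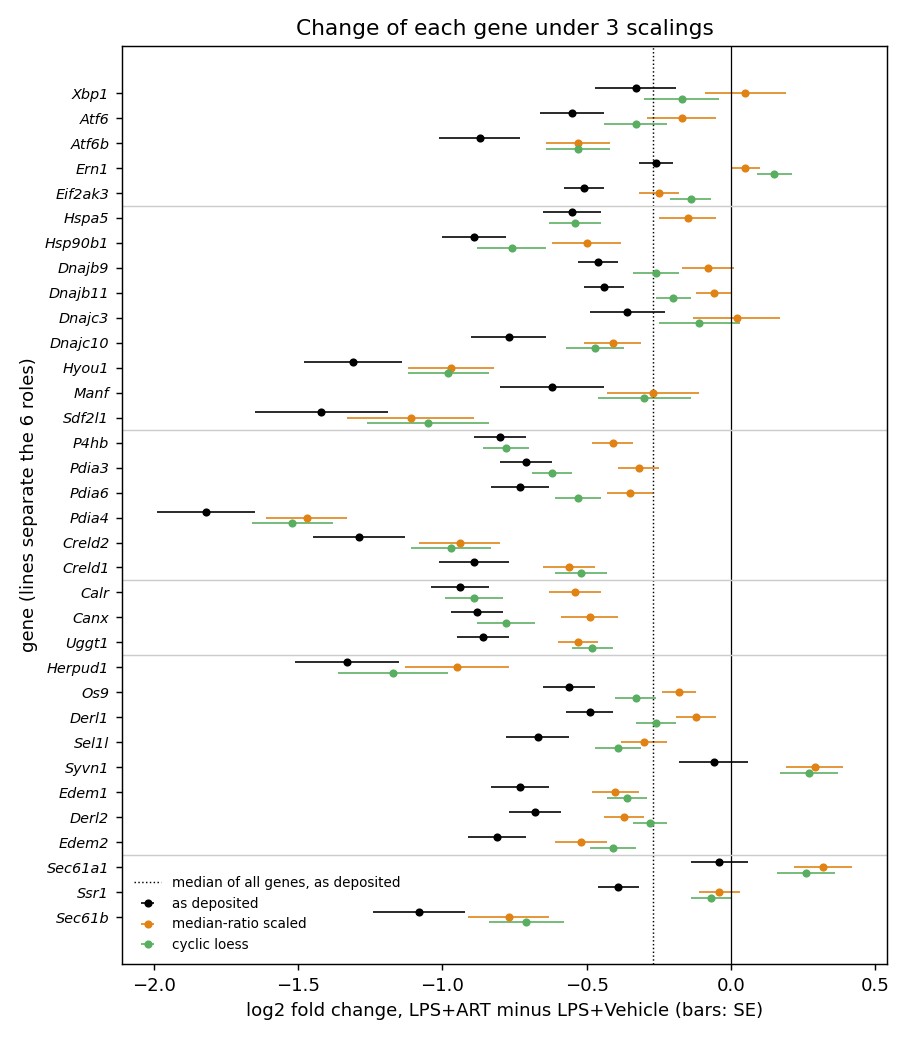
Log2 fold change (LPS+ART minus LPS+Vehicle) of each of the 34 tested genes with its SE, as deposited (black), after median-ratio scaling (orange) and with cyclic loess (green). Pdia4, Sdf2l1, Herpud1, Hyou1 and Creld2 lie farthest to the left in each setting, and Syvn1 and Sec61a1 lie at about 0 as deposited and to the right of 0 in both other settings.

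Ratios within a heart showed unequal changes that do not depend on any scaling factor. The ratio of Pdia4 to Hspa5 was 0.0400 to 0.0677 in LPS+ART against 0.0986 to 0.166 in LPS+Vehicle. That of Hyou1 to Hspa5 was 0.0355 to 0.0604 against 0.0832 to 0.0930, and that of Sec61b to Sec61a1 was 0.205 to 0.371 against 0.490 to 0.813. The groups were apart in each of these. The ratio of Hspa5 to Xbp1 overlapped, at 3.16 to 3.90 against 3.41 to 4.48, and so did that of Herpud1 to Hspa5, at 0.125 to 0.295 against 0.265 to 0.529. All of these pairs were picked after the values were seen.

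**Figure D4:**
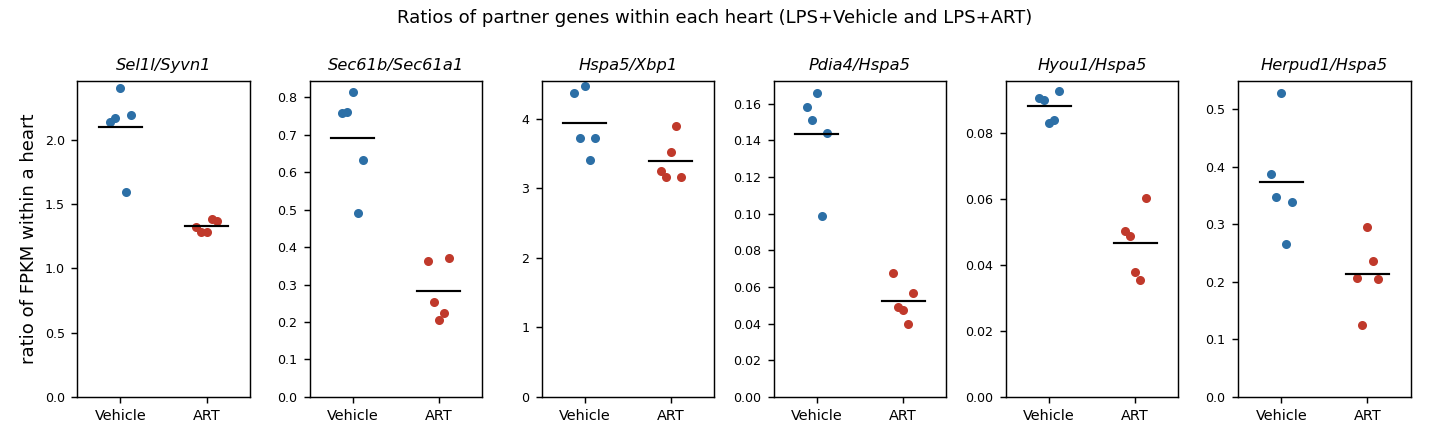
Ratio of FPKM of partner genes within each heart, blue for LPS+Vehicle and red for LPS+ART, with the group mean as a line and each axis starting at 0. The groups are apart for Sel1l/Syvn1, Sec61b/Sec61a1, Pdia4/Hspa5 and Hyou1/Hspa5 and overlap for Hspa5/Xbp1 and Herpud1/Hspa5.

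Fold changes were set beside the promoter matches as a description. Of the 10 tested genes with a match 9 were lower as deposited, where 52.9% of all genes were, with log2 fold changes from -1.33 (Herpud1) to -0.06 (Syvn1) and a median of -0.80. Of the 19 tested genes whose listed promoter held no match 18 were lower, from -1.82 (Pdia4) to -0.26 (Ern1), with a median of -0.73. After median-ratio scaling 6 of the 10 with a match and 15 of the 19 without were lower, against 30.1% of all genes. Syvn1, with the element 44 bases before its start, was the match carrier that was not called lower.

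LPS+ART hearts differed among themselves. Replicates 3 and 4 were the lowest pair of their group in 25 of the 34 genes, replicate 4 was the lowest heart in 21 and replicate 5 the highest in 16. Manf shows it, with replicate 3 at 5.10 and replicate 4 at 4.84 FPKM while the remaining 3 hearts stood at 8.10 to 9.48. Replicate 3 went the other way in 6 genes, as the highest LPS+ART heart for Hsp90b1, Canx, Calr, Herpud1, Dnajc3 and Dnajb9. With replicates 3 and 4 left out, 31 of the 34 genes were still lower. LPS+Vehicle replicates 2 and 5 were more alike than any other pair within a group (chi-square per degree of freedom of 1.75, against 13.6 to 48.7), though above sampling noise, and with that pair averaged as 1 heart 30 were lower.

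Genes of 6 neighbouring lists were counted in the same fit, in which 52.9% of all genes were lower and 11.8% higher as deposited, and 30.1% each way after median-ratio scaling. In the list for the PERK branch, which runs through phosphorylated eIF2alpha and ATF4, 7 of 14 genes were higher and 4 lower. Their median log2 fold change was 0.31, and median-ratio scaling made the counts 9 and 3. Whether PERK drove any of these changes was not tested. Atf4, the transcription factor of the branch, stood at 84.8, 116, 121, 120.1 and 112 FPKM in LPS+ART against 44.1, 49.0, 29.1, 49.9 and 46.7 in LPS+Vehicle. It was 2.53-fold higher without overlap (log2 fold change 1.33, SE 0.15, limma adjusted p = 2.25e-05), opposite in direction to BiP.

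Ppp1r15a (GADD34), which dephosphorylates eIF2alpha, stood at 34.9, 48.4, 60.2, 59.96 and 47.9 against 11.2, 17.3, 10.7, 18.3 and 17.4 FPKM, 3.35-fold higher. Atf3, a stress factor that ATF4 and many other signals induce, was 8.33-fold higher. Ddit3 (CHOP), the proapoptotic target of ATF4, went the opposite way, at 4.34, 3.92, 2.38, 2.68 and 4.17 against 8.84, 6.75, 8.21, 6.23 and 7.66 FPKM. It was 2.15-fold lower without overlap (limma adjusted p = 0.000153), although 10.9% of its exon bases are shared with other annotated genes. Cebpg, a dimer partner of ATF4, and Nck1, an adaptor, were 2.04-fold and 2.36-fold lower. All 6 named genes of this branch kept their direction and call in all 4 settings.

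Among 18 tested transducers and processing factors 10 were lower and 1 higher, but 6 lower and 5 higher after median-ratio scaling, and the lower share was near that of all genes in both settings. The membrane-bound factors Creb3l1 and Creb3l2, relatives of ATF6, parted: Creb3l1 stood at 5.17 to 8.76 against 2.07 to 5.00 FPKM and Creb3l2 at 2.19 to 3.90 against 6.08 to 8.13. Both kept these calls in all 4 settings. Nfyc, a subunit of the NF-Y complex that binds the CCAAT box of the ER stress response element, fell 1.79-fold. Bak1, an apoptosis effector with 25.5% of its exon bases shared with an opposite-strand gene, fell 1.67-fold, and was not called after median-ratio scaling (limma adjusted p = 0.0653).

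Other ER folding factors had 34 of 38 lower and 0 higher (0 higher at an unadjusted p under 0.05), and 20 lower and 1 higher after median-ratio scaling. Fkbp14, a prolyl isomerase for collagens, stood at 1.86 to 2.48 FPKM against 5.45 to 9.22. Ganab, the glucosidase II subunit that admits glycoproteins to calnexin and calreticulin, fell 2.06-fold, and Calr3, a calreticulin relative best known from testis, 2.41-fold.

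Other degradation factors had 22 of 29 lower and 0 higher (0 at an unadjusted p), but 8 lower and 11 higher after median-ratio scaling, so their direction as a group depended on the scaling, and the lower share on the scaled values was near the 30.1% of all genes. Ube4a, Rnf5 and Erlin2, a ubiquitin chain factor, a ligase and a lipid raft scaffold, fell 3.01-fold, 2.78-fold and 2.38-fold. For Rnf5, 24.7% of exon bases are shared with an opposite-strand gene. Translocation, signal peptide and glycosylation factors had 22 of 33 lower and 0 higher (0 at an unadjusted p), and 9 lower and 8 higher after median-ratio scaling, near the 30.1% of all genes each way. Magt1, an oxidoreductase subunit of the oligosaccharyltransferase, stood at 1.88 to 3.73 FPKM against 11.7 to 14.8, a 4.29-fold fall. Tram1 and Ostc fell 1.96-fold and 1.88-fold.

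ER-Golgi transport and retrieval genes had 24 of 28 lower and 1 higher, and 12 lower and 4 higher after median-ratio scaling, where 30.1% of all genes were called in each direction. Lman1, a cargo receptor for glycoproteins, stood at 4.90 to 6.48 against 10.9 to 13.7 FPKM. Kdelr3, a receptor that retrieves chaperones such as BiP from the Golgi, fell 2.11-fold with overlapping groups. Sec24b, a COPII coat gene and the 1 gene of the list called higher as deposited, was 2.08-fold higher. Sec24c, of the same coat, was 1.77-fold lower. Both calls held in all 4 settings, and the groups did not overlap in either gene.

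**Figure D5:**
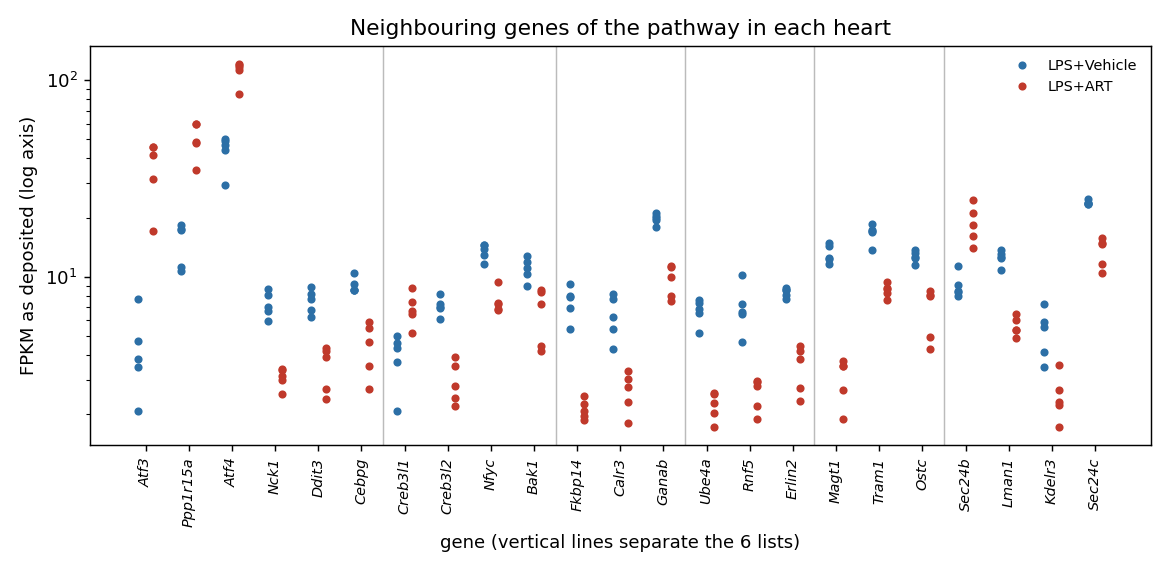
FPKM in each heart on a log axis for the named genes of the 6 neighbouring lists, blue for LPS+Vehicle and red for LPS+ART. Atf3, Ppp1r15a, Atf4, Creb3l1 and Sec24b lie higher in LPS+ART and the other named genes lower, with overlap of the groups in Kdelr3.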

How the data were processed

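RNA from 10 hearts was selected with oligo-dT and read from both ends, per the labels' protocols. The submitters' processing notes name mm9. For the aligner, counter, annotation and strand setting nothing is given in the sources used here. The unit of the authors' deposited table is FPKM, as judged from its values, which were not rescaled between samples: a library sums to 413202 to 444985 in LPS+ART, against 372908 to 393684 in LPS+Vehicle. Symbols for 29538 of 30074 identifiers came from GENCODE M21. With its exon lengths, 97.94% to 98.03% of the values above 0 in a library were whole reads within 0.01 read, giving 30684057 to 36679402 reads in LPS+ART, against 29980901 to 54222271 in LPS+Vehicle. In a 1 kb gene 3 reads, the floor for counting error only, are 0.0553 to 0.100 FPKM.

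Genes averaging 0.5 FPKM or more were fitted by limma-trend (limma 3.58.1, R 4.3.3) on log2(FPKM + 1), with group as sole term over the 10 libraries, and the code was tested on simulated data. Such fold changes understate low genes; folds in words are ratios of mean FPKM. Beyond the group sizes nothing in the labels ties each library to its own animal, so p-values reflect how these libraries spread, which may be technical in part. The 35 genes and all lists were chosen with earlier results of these data known. Named genes are the 35, and up to 3 rises and 3 falls per pathway list among called genes of at least 5 FPKM. Group assignment followed the treatment labels. The protein ends planned for description were not analysed here. Alternatives were median-ratio and TMM scaling (unweighted), cyclic loess, a pseudocount of 0.1, no filter, a filter at 1 FPKM, the replicate block, vehicle replicates 2 and 5 averaged, omission of LPS+ART replicates 3 and 4, and omission of each library. Promoters were RefSeq's (GRCm38.p6). Figures used matplotlib 3.10.9 in Python 3.11.15.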

Additional observations from a re-analysis of the deposited data

Results flagged for a closer look

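In 9 of 116 groups of 5 values, 1 heart lay far from the others of its group by Dixon's test, a result that chance gives in about 1 group in 20. In LPS+Vehicle replicate 1, Pdia6 stood at 36.2 FPKM against 29.0 to 30.6 in the other vehicle hearts, Creld2 at 15.7 against 13.0 to 13.6, and Sec24c at 24.7 against 23.5 to 23.8. LPS+Vehicle replicate 4 was low for Creld1, at 5.86 against 7.51 to 8.15 FPKM, and for Uggt1, at 5.52 against 6.95 to 7.25. LPS+ART replicate 3 was high for Dnajb9, at 22.8 against 20.5 to 21.0 FPKM, and for Nfyc, at 9.45 against 6.77 to 7.31. Atf4 was low in LPS+ART replicate 1, at 84.8 against 112 to 121 FPKM, and in LPS+Vehicle replicate 3, at 29.1 against 44.1 to 49.9. These hearts did not bring the 2 groups of any of these genes into overlap.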

How the results depend on the processing

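Calls lower among the 34 ER genes ranged from 30 to 32 with each library left out in turn and calls higher stayed at 0, against 107 to 120 and 8 to 10 for the neighbouring lists (116 and 9 with all libraries) and 6580 to 7062 and 1396 to 1562 for all genes. Between-sample scaling moved the counts most. Median-ratio scaling gave 2 ER genes higher, 58 list genes lower and 38 higher, and 4014 genes lower and 4004 higher overall. TMM gave 2, 61, 34, 4097 and 3906 in the same order, and cyclic loess 3, 66, 29, 3827 and 3856. The sign turned for Ern1 (0.05, 0.04 and 0.15 by median-ratio, TMM and cyclic loess), Syvn1 (0.29, 0.28 and 0.27) and Sec61a1 (0.32, 0.31 and 0.26), and by median-ratio and TMM for Xbp1 (0.05 and 0.04) and Dnajc3 (0.02 and 0.00). It also turned, uncalled, for Syvn1 without LPS+ART replicate 4 (0.03) and without LPS+ART 3 and 4 (0.11), and for Sec61a1 without LPS+ART replicate 3 (0.00), without vehicle replicate 4 (0.02) and without LPS+ART 3 and 4 (0.04). With each library left out in turn the log2 fold change ranged from -0.11 to 0.03 for Syvn1 and from -0.11 to 0.02 for Sec61a1. The cause was not tested. With the replicate number as a block, 30 ER genes were lower and 0 higher. The share of all genes in that fit is not given here, and without the block 52.9% were lower. The deviations of same-numbered hearts from their group means correlated between -0.07 and 0.18, and those of differently numbered hearts at up to 0.23. Such weak correlations cannot show whether the numbers pair the hearts. Depth limits Derl3, which was too low to test.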
